A study of Mus musculus with 16 samples.

Results

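The genes of 33 chemokines and cytokines that tumour cells can make were followed in 4 mouse mammary tumour cell lines. The genes were chosen by name, and each was read through its brightest detected probe on Illumina BeadChips, arrays on which every probe is the average light intensity of many beads. A probe was annotated to 32 of the 33 genes, and Cxcl5 was not analysed here. Of these, 22 genes had a probe with a detection p under 0.05 on at least 4 of the 16 arrays and were tested among 10724 genes in all.

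The lines MI6 and MI7 came from tumours of mice transgenic for d16HER2, a form of the human receptor tyrosine kinase HER2 whose transcript skips exon 16. WTHER2-1 and WTHER2-2 came from mice transgenic for full-length WT HER2. RNA of each line was hybridised to 4 arrays, 8 per transgene. No treatment is named for any line, and the promoter that drives each transgene is not given in the sources used here. Nothing in the labels tells if a line's arrays were separate cultures, so a p-value over arrays may measure technical spread only. With 2 lines per transgene, a difference is one between these lines.

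Chemokines are small secreted proteins that draw leukocytes along a gradient through G protein-coupled receptors, and cytokines instruct the growth, survival and activity of the cells that bind them. In mammary tumours such signals, made by the tumour cells or by stroma, help decide whether macrophages, neutrophils or T cells enter. Many of these genes are switched on by NF-kB after IL-1 or TNF, and the chemokines that bind CXCR3 also by interferon.

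Of the 22 tested genes, 5 were called in the same direction in every pair of a d16HER2 with a WT HER2 line. A call took at least a 2-fold difference and a limma adjusted p under 0.05. Csf3, the gene of the neutrophil growth factor G-CSF, was higher in the d16HER2 lines (1 gene, against 3.05% of all genes). The T cell chemokine gene Ccl5, the chemokine gene Ccl25 and the cytokine genes Il18 and Il34 were lower in them (4 genes, against 2.43% of all genes). Without the WTHER2-2 arrays of BeadChip 4, which stood apart, Csf3 and Il23a were higher (2 genes, against 3.02% of all genes) and Ccl5, Il18 and Cxcl10 lower (3 genes, against 2.90%). Cxcl10, undetected on every d16HER2 array, had to differ. Il33 instead set WTHER2-2 apart from the other 3 lines.

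Some of these genes sit together in the genome. The upstream sequences of 4 CXC chemokine genes on mouse chromosome 5 are shown, the neutrophil-attracting Cxcl1 and Cxcl2 and the interferon-inducible Cxcl9 and Cxcl10. Genes of 1 kind did not share a pattern over the lines. Cxcl1 was called between WTHER2-1 and WTHER2-2 (1.83) and Cxcl2 was not (0.03), and Cxcl9 was not tested. Each run is the 250 bases before the start of the gene in RefSeq (assembly GRCm38.p6), 5′ to 3′ on the gene's own strand. Capitals mark matches on either strand to GGNNNTTCC, an NF-kB type motif, or to GAAANNGAA, a motif of the interferon-stimulated response element type.
Cxcl1 (chr5:90890995-90891244, + strand): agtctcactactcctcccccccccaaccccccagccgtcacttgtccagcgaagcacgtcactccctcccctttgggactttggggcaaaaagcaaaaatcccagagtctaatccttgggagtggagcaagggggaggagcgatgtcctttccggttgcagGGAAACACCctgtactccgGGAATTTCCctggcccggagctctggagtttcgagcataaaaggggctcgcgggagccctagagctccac
Cxcl2 (chr5:90903649-90903898, + strand): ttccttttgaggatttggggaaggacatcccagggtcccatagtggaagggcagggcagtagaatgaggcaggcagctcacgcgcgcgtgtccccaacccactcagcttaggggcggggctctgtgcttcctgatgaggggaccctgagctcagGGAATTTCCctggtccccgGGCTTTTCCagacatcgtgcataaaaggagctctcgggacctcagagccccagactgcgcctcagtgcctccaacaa
Cxcl9 (chr5:92328080-92328329, - strand): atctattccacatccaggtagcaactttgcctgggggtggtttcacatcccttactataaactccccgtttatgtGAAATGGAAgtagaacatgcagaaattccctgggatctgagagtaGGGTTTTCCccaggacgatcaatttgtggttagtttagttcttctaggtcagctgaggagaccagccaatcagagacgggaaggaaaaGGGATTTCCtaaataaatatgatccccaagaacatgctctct
Cxcl10 (chr5:92348890-92349139, - strand): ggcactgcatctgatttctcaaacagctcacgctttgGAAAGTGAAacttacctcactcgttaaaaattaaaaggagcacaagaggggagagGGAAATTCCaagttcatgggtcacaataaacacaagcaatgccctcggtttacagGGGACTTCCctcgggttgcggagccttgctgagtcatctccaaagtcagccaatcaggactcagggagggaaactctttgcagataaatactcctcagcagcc
Cxcl1 and Cxcl2 each held 2 NF-kB type matches and no match of the interferon type. Cxcl9 and Cxcl10 each held 2 NF-kB type matches and 1 of the interferon type, and no capitals overlap. Of the 22 listed genes with an entry among the RefSeq promoters, 10 held the NF-kB type motif (Ccl20, Csf1, Cx3cl1, Cxcl1, Cxcl10, Cxcl2, Cxcl9, Il1rn, Il6 and Tnf), against 17.6% of all 27025 genes with a window of this length. The interferon type was found in 4 of the 22 (Csf2, Cxcl10, Cxcl14 and Cxcl9), against 8.18% of all genes, and both types in 2, against 1.18%. A match describes these letters only and is not a binding site. In the order of genes along the chromosomes, Cxcl15, Cxcl1 and Cxcl2 neighbour one another, as do Ccl2 with Ccl7 and Il1a with Il1b.

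The arrays detected 35.8% to 42.4% of 45281 probes each. Correlations between arrays of 1 line, across genes, ran from 0.977 to 0.997 for MI6, 0.976 to 0.994 for MI7 and 0.959 to 0.993 for WTHER2-1, but from 0.852 to 0.992 for WTHER2-2. WTHER2-2 replicates 3 and 4, on BeadChip 4, stood apart from replicates 1 and 2, on BeadChip 3. The mean log2 intensity of the 9 tested epithelial markers of 10 was 11.94 to 12.24 on the d16HER2 arrays, 11.19 to 11.56 on the WTHER2-1 arrays, 11.76 and 11.70 on the first 2 WTHER2-2 arrays, and 8.63 and 6.47 on the last 2. The mean of the 6 tested fibroblast markers of 10 was 5.84 to 6.39 on the d16HER2 arrays, 6.51 to 7.44 on the WTHER2-1 arrays, 8.70 and 8.81 on the first 2 WTHER2-2 arrays, and 12.12 and 11.58 on the last 2. The mean of the epithelial markers expected of a mammary tumour line was thus high on all but these last 2 arrays. Single markers were not all bright. Epcam averaged 5.87 in WTHER2-1, detected on 3 of 4 arrays, and Krt19, the untested marker, was detected on 0 arrays. Values without BeadChip 4 are given where they differ most. Few leukocyte and endothelial markers were detected. Of 15 leukocyte markers 12 had a probe and 2 were tested (Cd14 and Csf1r), with Ptprc, Itgam, Adgre1, Lyz2, Tyrobp and Cd3e detected on 0 arrays, and of 7 endothelial markers 3 were tested, with Pecam1 and Cdh5 on 0 arrays. The mean of the 2 leukocyte markers was 9.07 to 9.71 on the d16HER2 arrays, 9.69 to 10.11 on the WTHER2-1 arrays and 7.62 to 8.77 on the WTHER2-2 arrays. The mean of the 3 endothelial markers was 5.59 to 5.93, 5.48 to 5.71 and 5.74 to 7.15 on the same sets of arrays. The part that these marker levels have in the differences below was not tested. The arrays of both d16HER2 lines shared BeadChips 1 and 2, and each WT HER2 line had 2 BeadChips of its own, so BeadChip and transgene cannot be told apart.

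Most of the 22 tested genes were detected in every line. The detection p passed on all 16 arrays for 10 genes (Ccl25, Cxcl1, Cxcl12, Cxcl16, Cx3cl1, Lif, Csf1, Il34, Il15 and Il23a) and on at least 1 array of every line for 18. Ccl2 and Cxcl10 were detected on 0 of the 8 d16HER2 arrays and on 6 of the 8 WT HER2 arrays each. Those 2 genes entered the test only through the lines in which they were high, so they had to differ, and no count over the tested genes is read as evidence about the list. Il33 was detected on no MI7 array and Tslp on no MI6 array.

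**Figure D1:**
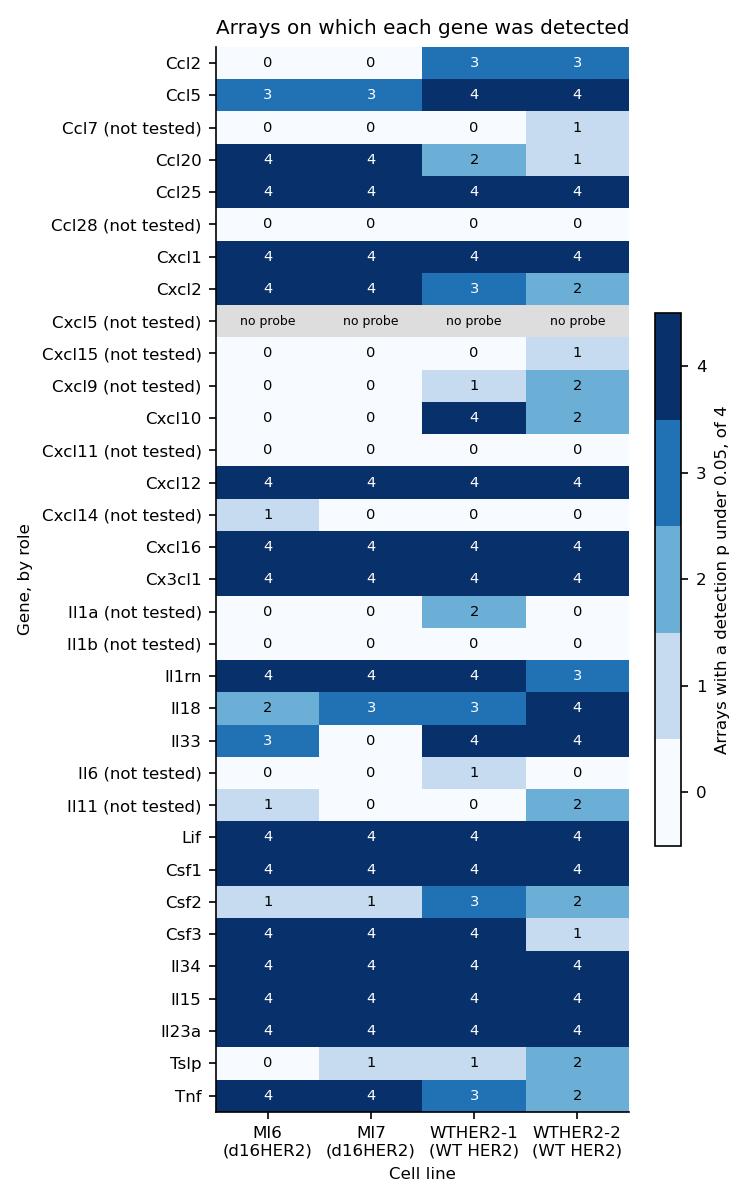
Number of arrays, of 4 in each cell line, on which the probe of each of the 33 genes had a detection p under 0.05, with genes grouped by role from top to bottom and d16HER2 lines on the left. Darker cells mark more arrays, Ccl2 and Cxcl10 are at 0 in both d16HER2 lines, and Cxcl5 had no probe.

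The other 10 genes were detected on too few arrays to test. Ccl28, Cxcl11 and Il1b were detected on no array. Ccl7, a monocyte chemokine gene beside Ccl2, was detected only on WTHER2-2 replicate 3, by both of its probes (8.83 and 8.77), and so was Cxcl15, a neutrophil chemokine gene (8.90). Ccl2, Cxcl12 and Il33 also had their highest value on that array. Cxcl9, a CXCR3 ligand gene, was detected on WTHER2-2 replicates 1 and 2 (6.77 and 7.09) and on WTHER2-1 replicate 3 (5.66). Il1a was detected on 3 WTHER2-1 arrays over its 2 probes, Il6 on 1 WTHER2-1 array, Il11 on 1 MI6 and 2 WTHER2-2 arrays, and Cxcl14 on 1 MI6 array.

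Values are log2 intensities after background correction and quantile normalization, so that a difference of 1 is a 2-fold difference, and arrays are given in the order of replicates 1 to 4. Levels of different genes come from different probes and are not compared. Differences are d16HER2 minus WT HER2 means of 2 lines each, with the standard error of limma's line-level test, whose call is a Benjamini-Hochberg adjusted p under 0.05 over all 10724 genes. Separated genes differed in the same direction, by at least 1 and with an adjusted p under 0.05, in each of the 4 d16HER2 to WT HER2 line pairs, when limma fitted all 16 arrays with 1 mean per line. No exact permutation test of 2 lines against 2 can pass that threshold.

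Among the CC chemokines, Ccl5, which attracts T cells, monocytes and eosinophils, was lower in both d16HER2 lines. It measured 6.25, 5.37, 5.74 and 7.07 for MI6 and 5.89, 5.63, 6.02 and 6.45 for MI7. The WT HER2 arrays read 9.68, 9.46, 8.29 and 9.41 for WTHER2-1 and 9.99, 10.30, 8.26 and 7.82 for WTHER2-2. Every d16HER2 array lay below every WT HER2 array, and within WTHER2-2 the last 2 arrays were the lower ones. Ccl5 was detected on 3 of the 4 arrays of MI6 and 3 of the 4 of MI7, so its d16HER2 level was near the detection limit. The difference was -3.10 ± 0.23 (SE, 2 lines each; limma's line-level adjusted p = 0.04), and Ccl5 was separated. It was -2.17 both without background correction and with the authors' normalized table. No other of the 22 genes was called in the line-level test, so that 1 was called, against 0.494% of all genes. That line-level call was lost without BeadChip 4 (-3.65, adjusted p = 0.0681), without BeadChip 3 (-2.58, adjusted p = 0.168), with median scaling and with no detection filter, whereas the separated call held in each alternative tried for it. In cell lines measured in bulk, fewer expressing cells and less RNA per cell cannot be told apart.

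Ccl25, the thymic and intestinal chemokine that binds CCR9, was also lower. It read 7.31, 7.77, 7.84 and 8.02 for MI6 and 6.26, 6.89, 6.53 and 7.29 for MI7, against 9.33, 8.97, 8.83 and 9.13 for WTHER2-1 and 8.33, 8.72, 8.90 and 9.41 for WTHER2-2. The transgenes' arrays did not overlap, and MI7 lay lower than MI6. The difference was -1.71 ± 0.42 (line-level adjusted p = 0.162), and the gene was separated. Its 2 other detected probes differed by -1.51 and -1.39. The separated call was lost without BeadChip 4 (-1.56), without background correction (-1.30), with the authors' normalized table (-1.30) and with median scaling (-1.62). It was also lost without MI6 replicate 1 (-1.64) or WTHER2-2 replicate 4 (-1.62).

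Ccl2, the main monocyte chemoattractant, lay between 4.67 and 4.96 on the 8 d16HER2 arrays, none of which detected it, against 4.91 to 6.37 for WTHER2-1 and 5.61 to 9.31 for WTHER2-2. With the undetected arrays set no lower than the dimmest detected signal, the d16HER2 level was at least 1.6-fold lower (line-level adjusted p = 0.168). The high WTHER2-2 value, 9.31, was that of replicate 3 alone. Ccl20, which attracts cells bearing CCR6, ran from 6.46 to 7.76 for MI6 and 5.88 to 7.11 for MI7, against 5.01 to 6.50 for WTHER2-1 and 4.81 to 5.92 for WTHER2-2. It differed by 1.21 ± 0.30 (line-level adjusted p = 0.165), with 3 of the 4 pairs past the thresholds, and was not separated.

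The neutrophil-attracting chemokines were not called between the transgenes. Cxcl1, a CXCR2 ligand, was detected on every array. It read 13.98, 14.26, 14.38 and 14.54 for MI6 and 13.28, 12.68, 12.70 and 13.62 for MI7, against 13.70, 13.63, 14.00 and 14.04 for WTHER2-1 and 12.66, 12.92, 11.76 and 10.71 for WTHER2-2. MI6 and WTHER2-1 were high and overlapped, and WTHER2-2 was lowest, above all on BeadChip 4. The transgenes differed by 0.75 ± 0.78 (line-level adjusted p = 0.657), and by 0.36 without BeadChip 4. Cxcl2, the neighbouring CXCR2 ligand gene, ran from 6.73 to 8.70 for MI6 and 5.94 to 6.11 for MI7, against 4.91 to 6.17 for WTHER2-1 and 5.09 to 6.19 for WTHER2-2. All 4 MI6 arrays lay above every other array, and the difference between transgenes was 1.21 ± 0.61 (line-level adjusted p = 0.377). Its dimmer second probe was detected on 5 d16HER2 arrays and on 0 WT HER2 arrays.

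Of the interferon-inducible CXCR3 ligands, only Cxcl10 was tested. It lay between 4.70 and 5.0 on the d16HER2 arrays, all undetected. The WTHER2-1 arrays read 5.91, 6.09, 7.17 and 5.86, and the WTHER2-2 arrays 9.12, 9.11, 5.18 and 5.17. The WTHER2-2 level was thus high on BeadChip 3, where Cxcl9 was detected too, and undetected on BeadChip 4. In the d16HER2 lines Cxcl10 was at least 2.12-fold lower (line-level adjusted p = 0.118) and was not separated with all arrays. Without BeadChip 4 it was separated and at least 4.26-fold lower (line-level adjusted p = 0.262), and without BeadChip 3 at least 1.07-fold lower (line-level adjusted p = 0.416).

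Cxcl12, the ligand of CXCR4 made mainly by stromal cells, read 9.86, 9.24, 9.57 and 10.16 for MI6 and 9.33, 9.0, 9.50 and 8.67 for MI7. It read 9.53, 9.91, 8.63 and 9.11 for WTHER2-1 and 7.38, 6.73, 10.34 and 8.07 for WTHER2-2. WTHER2-2 replicates 1, 2 and 4 lay below every other array, and its replicate 3 above them all. The difference was 0.71 ± 0.50 (line-level adjusted p = 0.515) and 1.24 without BeadChip 4, and the 2 other probes differed by 0.55 and 0.92.

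The membrane-anchored chemokines Cxcl16 and Cx3cl1, which ADAM proteases shed, were detected on every array and not called between the transgenes. Cxcl16, the ligand of CXCR6, read 10.99, 10.49, 10.35 and 10.88 for MI6 and 11.14, 11.31, 11.04 and 11.37 for MI7, against 10.95, 11.79, 11.57 and 11.72 for WTHER2-1 and 13.10, 13.20, 9.53 and 6.96 for WTHER2-2. The last line spanned both extremes by BeadChip. The difference was -0.16 ± 0.38, but -1.37 without BeadChip 4, 1.08 without BeadChip 3 and 0.11 for the mean of its probes, so it has no settled direction. Cx3cl1, which holds and attracts cells bearing CX3CR1, read 11.72, 11.57, 11.73 and 11.45 for MI6 and 11.01, 10.81, 11.16 and 11.31 for MI7. It read 10.49, 10.12, 9.83 and 10.45 for WTHER2-1 and 11.51, 11.67, 11.31 and 10.11 for WTHER2-2. WTHER2-1 was the low line, and the transgenes differed by 0.66 ± 0.41 (line-level adjusted p = 0.459).

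In the IL-1 family, Il18, which is cleaved by caspase-1 and drives interferon-gamma release, was lower in the d16HER2 lines. It read 5.49, 5.57, 5.22 and 5.98 for MI6 and 5.77, 6.04, 5.45 and 6.03 for MI7, close to the detection limit. The WTHER2-1 arrays read 7.49, 9.58, 5.35 and 8.90, and the WTHER2-2 arrays 9.08, 9.61, 9.20 and 9.29. WTHER2-1 replicate 3 lay among the d16HER2 arrays and the other 7 WT HER2 arrays above them. The difference was -2.87 ± 0.57 (line-level adjusted p = 0.121), and the gene was separated, also without BeadChip 3 (-2.85) or 4 (-2.92). The call was lost with BeadChip as a random block, and without MI7 replicate 3 (-2.81), WTHER2-1 replicate 2 (-2.57) or WTHER2-1 replicate 4 (-2.69).

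Il33, an alarmin that signals through the receptor ST2, was highest in WTHER2-2. It read 5.50, 6.27, 6.59 and 7.13 for MI6 and 5.14, 5.11, 5.21 and 5.17 for MI7, against 6.35, 6.73, 7.32 and 6.50 for WTHER2-1 and 10.26, 10.36, 12.60 and 9.56 for WTHER2-2. All 4 WTHER2-2 arrays lay above every other array, and MI6 and WTHER2-1 overlapped. MI7, with no array detected, was at least 33.9-fold lower than WTHER2-2 (adjusted p = 7.79e-07, limma fit of the 4 lines) and at least 2.16-fold lower than WTHER2-1 (adjusted p = 0.0273). MI6 and WTHER2-1 differed by -0.35 ± 0.50 (adjusted p = 0.632). Il1rn, the natural IL-1 receptor antagonist, ran from 8.45 to 8.98 for MI6 and 7.84 to 8.85 for MI7, against 8.09 to 9.84 for WTHER2-1 and 5.17 to 8.43 for WTHER2-2, and differed by 0.70 ± 0.53 (line-level adjusted p = 0.54), or by 0.13 without BeadChip 4.

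Lif, the only IL-6 family member tested, keeps stem cells undifferentiated and signals through LIFR and gp130. It read 9.62, 9.48, 9.53 and 9.16 for MI6 and 9.95, 8.87, 9.12 and 8.39 for MI7, against 8.93, 9.33, 10.28 and 9.47 for WTHER2-1 and 8.97, 8.21, 6.18 and 6.16 for WTHER2-2. The first 3 lines overlapped, and the low values were those of BeadChip 4. The difference was 0.82 ± 0.78 (line-level adjusted p = 0.627), but 0.22 without BeadChip 4.

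Among the colony-stimulating factors, calls were made in both directions. Csf3 (G-CSF), which drives neutrophil production, read 8.48, 8.39, 8.12 and 7.58 for MI6 and 8.59, 8.58, 8.45 and 7.93 for MI7. The WT HER2 arrays read 5.76, 6.12, 6.91 and 6.36 for WTHER2-1 and 6.53, 5.50, 4.94 and 4.61 for WTHER2-2. Every d16HER2 array lay above every WT HER2 array, and WTHER2-2 detected Csf3 on 1 of its 4 arrays. The difference was 2.42 ± 0.39 (line-level adjusted p = 0.0937), and Csf3 was separated, also without BeadChip 3 (2.74) or 4 (2.13). A second, dim Csf3 probe, detected on 2 d16HER2 and 6 WT HER2 arrays, differed by -0.16, and with the mean of both probes (1.13) the call was lost.

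Of Csf1 and Il34, both ligands of the macrophage receptor CSF1R, only Il34 was separated. Csf1 read 8.17, 7.34, 7.62 and 8.24 for MI6 and 7.37, 7.64, 7.67 and 7.94 for MI7, against 8.64, 8.68, 9.10 and 8.45 for WTHER2-1 and 10.13, 10.10, 8.77 and 8.87 for WTHER2-2. Its arrays did not overlap between the transgenes, and the difference was -1.35 ± 0.35 (line-level adjusted p = 0.173), with 3 of the 4 pairs called. The remaining pair, MI6 minus WTHER2-1, was -0.88, short of 2-fold. Il34 read 7.58, 6.46, 6.25 and 7.33 for MI6 and 7.70, 6.62, 6.38 and 6.98 for MI7, against 8.74, 8.97, 8.77 and 8.89 for WTHER2-1 and 7.56, 6.84, 9.78 and 10.34 for WTHER2-2. The first 2 WTHER2-2 arrays overlapped the d16HER2 arrays, and the last 2 were the highest. The difference was -1.82 ± 0.24 (line-level adjusted p = 0.0779), and Il34 was separated, but without BeadChip 4 it was -1.11 and the call was lost, as it was with BeadChip as a random block and with no detection filter. The call held in 6 of the 16 fits that left out 1 array.

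Csf2 (GM-CSF), which matures granulocytes, macrophages and dendritic cells, was near the detection limit in 3 lines. It read 5.87, 5.38, 5.0 and 5.26 for MI6 and 5.67, 5.20, 5.35 and 4.98 for MI7, against 5.88, 8.36, 5.18 and 9.01 for WTHER2-1 and 5.85, 5.99, 4.69 and 4.68 for WTHER2-2. Only WTHER2-1 replicates 2 and 4 were clearly higher. The transgenes differed by -0.87 ± 0.66 (line-level adjusted p = 0.539).

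Il23a, the p19 subunit that pairs with p40 to form IL-23, had the largest difference among the lymphocyte-acting cytokines. It read 11.26, 11.63, 11.28 and 10.52 for MI6 and 10.05, 9.96, 9.76 and 9.73 for MI7, against 8.85, 8.30, 7.97 and 9.93 for WTHER2-1 and 8.29, 8.31, 6.34 and 6.76 for WTHER2-2. The lines' means stood in that order, with MI6 and MI7 not called apart (adjusted p = 0.3), and only WTHER2-1 replicate 4 reached the MI7 range. The difference was 2.43 ± 0.68 (line-level adjusted p = 0.185), with 3 of 4 pairs called. The remaining pair, MI7 minus WTHER2-1, was 1.11 ± 0.46 (adjusted p = 0.0817). Il23a was separated without BeadChip 3 (2.88) or without BeadChip 4 (1.99). Its dim second probe was detected on 5 d16HER2 arrays and on 0 WT HER2 arrays.

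Il15, which sustains NK cells and memory T cells, was not called between any lines with all arrays. It read 10.46, 10.11, 10.08 and 9.83 for MI6 and 9.79, 9.64, 9.45 and 9.29 for MI7, against 9.67, 9.45, 8.50 and 9.65 for WTHER2-1 and 10.60, 10.72, 9.50 and 9.04 for WTHER2-2. The arrays overlapped, and the difference was 0.19 ± 0.36 (line-level adjusted p = 0.822). Without BeadChip 4, WTHER2-1 and WTHER2-2 differed by -1.34 (adjusted p = 0.00181). Tnf, the inflammatory cytokine that activates NF-kB, ran from 6.91 to 7.37 for MI6 and 6.38 to 7.05 for MI7, against 5.02 to 6.44 for WTHER2-1 and 4.62 to 7.11 for WTHER2-2. It differed by 0.86 ± 0.28 (line-level adjusted p = 0.224), and by 0.30 without BeadChip 4. Tslp, an epithelial cytokine that acts on dendritic cells, lay between 4.85 and 5.64 on the d16HER2 arrays and between 4.71 and 6.21 on the WT HER2 arrays, and differed by 0.00 ± 0.18 (line-level adjusted p = 0.992).

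**Figure D2:**
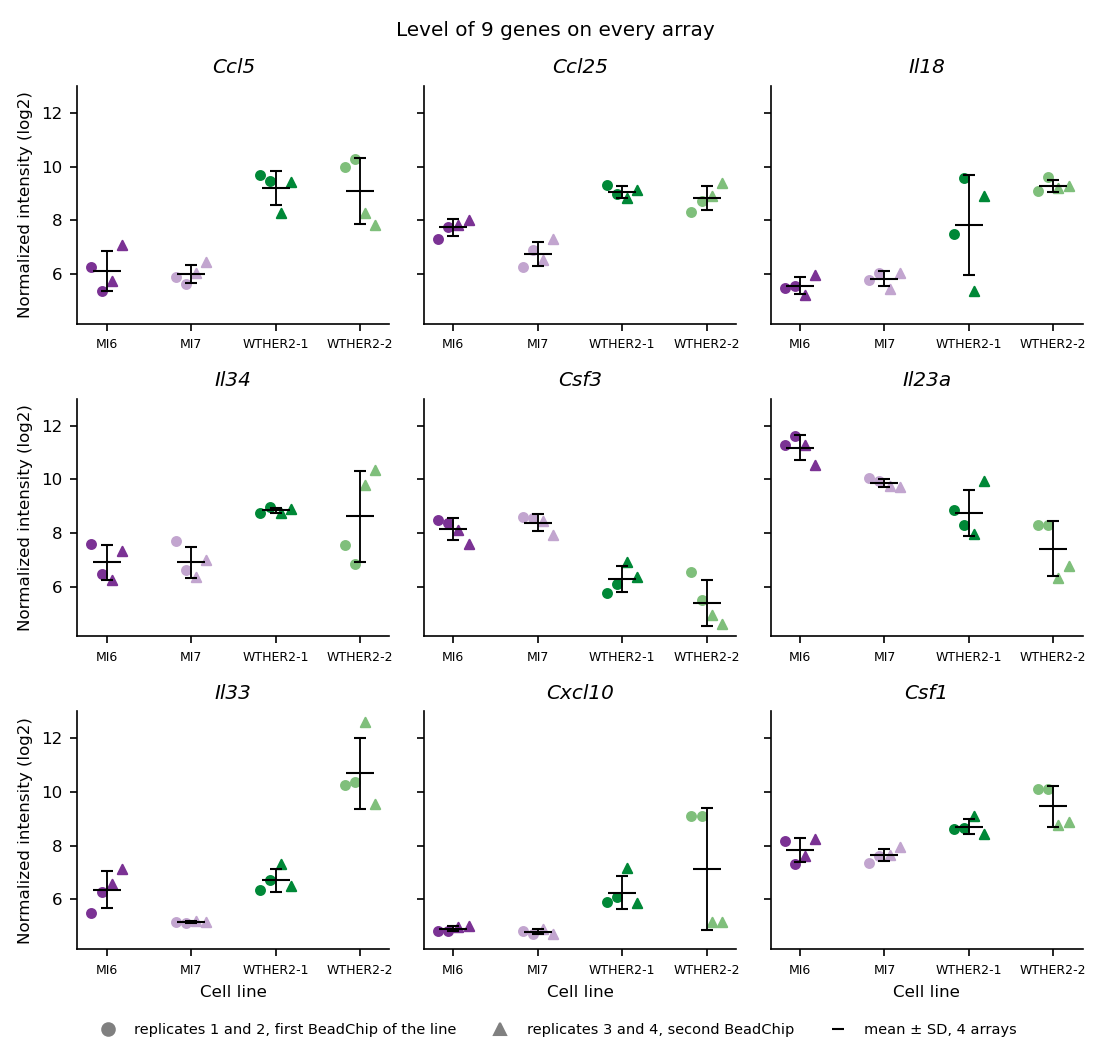
Log2 normalized intensity of 9 genes on each of the 16 arrays, with the d16HER2 lines MI6 and MI7 left of WTHER2-1 and WTHER2-2, circles for replicates 1 and 2, triangles for replicates 3 and 4, and bars for mean ± SD over 4 arrays. Ccl5 lies lower and Csf3 higher on every d16HER2 array than on every WT HER2 array, whereas Il33 is high only in WTHER2-2.

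Counted over the 22 tested genes, 12 had the higher mean in the d16HER2 lines and 10 the lower, with a median difference of 0.10 against 0.03 over all genes. The median absolute difference was 1.21, against 0.35 over all genes. In the higher direction 1 gene (Csf3) was separated, against 3.05% of all genes, and in the lower direction 4 (Ccl5, Ccl25, Il18 and Il34), against 2.43%. The arrays of the transgenes did not overlap for 5 genes (Ccl5, Ccl25, Cxcl10, Csf1 and Csf3), against 11.6% of all genes. Of these, Cxcl10 was detected on 0 d16HER2 and 6 WT HER2 arrays and was tested only through the WT HER2 lines. Its lack of overlap rests partly on undetected values in both transgenes. At an unadjusted p under 0.05, the line-level test picked 11 of the 22 genes and 19.5% of all genes.

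The 4 pairs of lines share lines with each other, so their counts are not independent. MI6 and WTHER2-1 differed by the thresholds in 9 of the 22 genes, against 15.6% of all genes. MI6 and WTHER2-2 differed in 16, against 19.9%, MI7 and WTHER2-1 in 8, against 14.5%, and MI7 and WTHER2-2 in 13, against 20.1%. In all, 18 of the 22 were called in at least 1 pair, against 31.8% of all genes, and Cxcl16, Il15, Tslp and Tnf were called in none. Ccl2, Cxcl1, Cxcl10, Cxcl12, Lif and Il1rn were called only against WTHER2-2. Without BeadChip 4, MI7 minus WTHER2-2 was 0.27 for Cxcl1 and 0.49 for Lif, and MI6 minus WTHER2-2 was 0.85 for Lif and 0.41 for Il1rn, all short of 2-fold.

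**Figure D3:**
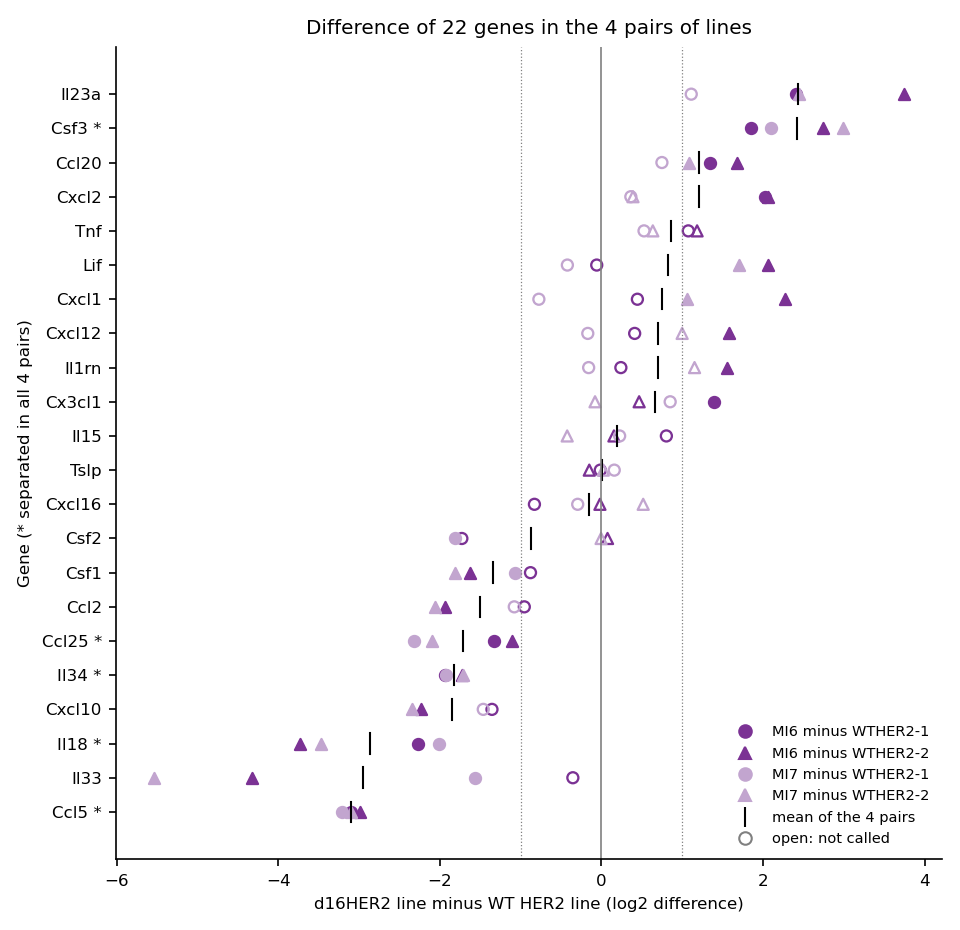
Log2 difference of a d16HER2 line minus a WT HER2 line in the 4 pairs of lines for each of the 22 tested genes, with filled symbols for called pairs, black bars for the mean of the 4 pairs and dotted lines at a difference of 1 in either direction. An asterisk marks the 5 separated genes, and the pairs of Il33, undetected in MI7, spread from -5.54 to -0.35 where those of Ccl5 lie between -3.21 and -2.99.

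Between the d16HER2 lines MI6 and MI7, which shared their BeadChips, 0 of the 22 genes were called in the limma fit of the 4 lines, against 1.17% of all genes. At an unadjusted p under 0.05 there were 5 genes, all higher in MI6 (Ccl25, Cxcl1, Cxcl2, Il23a and Il33), against 9.15% of all genes. With BeadChip as a fixed block, Cxcl1 (1.22, adjusted p = 0.00796) and Cxcl2 (1.67, adjusted p = 0.0422) were called, against 2.13% of all genes. Within BeadChips 1 and 2 taken alone, Cxcl1 differed by 1.14 and 1.30 and Cxcl2 by 1.68 and 1.65. Ccl25 differed by 0.96 and 1.02, and Il23a by 1.45 and 1.16. Il33, undetected in MI7, was at least 1.69-fold higher in MI6 over both BeadChips (adjusted p = 0.427). The spread that the fit used included WTHER2-2, and without its BeadChip 4 all 5 of these genes were called, against 2.41% of all genes. The median absolute difference was 0.47, against 0.16 over all genes.

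Between WTHER2-1 and WTHER2-2, whose BeadChips differ, 4 genes were higher in WTHER2-1 (Cxcl1, Lif, Csf2 and Il23a), against 8.15% of all genes called in that direction, and 1 was lower (Il33), against 7.68%. Il33 differed by -3.97 ± 0.50 (adjusted p = 2.98e-05) and Cxcl1 by 1.83 ± 0.37 (adjusted p = 0.00145). Lif differed by 2.12 ± 0.54 (adjusted p = 0.00715), Csf2 by 1.80 ± 0.65 (adjusted p = 0.0433) and Il23a by 1.34 ± 0.46 (adjusted p = 0.0344). Without BeadChip 4, 10 of the 22 genes were called in either direction, against 17.1% of all genes, and without BeadChip 3, 12 of 21, against 24.2%. Lif (0.91), Csf2 (1.19) and Il23a (0.46) were not among those called without BeadChip 4. Cxcl1 and Il33 kept the same direction in both. Cxcl10, Cxcl16, Il34 and Tnf were called both times with the opposite sign. Without BeadChip 4, for example, Cxcl16 differed by -1.63 (WTHER2-1 minus WTHER2-2), and without BeadChip 3 by 3.27.

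The 2 BeadChips of WTHER2-2 differed widely in these genes. Between them, 17 of the 22 genes differed at least 2-fold, against 20.8% of all genes. In WTHER2-1 there were 2, against 1.97%, and in MI6 and MI7 0 each, against 0.270% and 0.401%. The second BeadChip minus the first was -4.90 for Cxcl16, -3.94 for Cxcl10 and -2.42 for Lif in WTHER2-2, and 2.86 for Il34, 2.15 for Cxcl12 and 1.35 for Ccl2. Epithelial markers were lower and fibroblast markers higher on the same arrays, as given above.

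**Figure D4:**
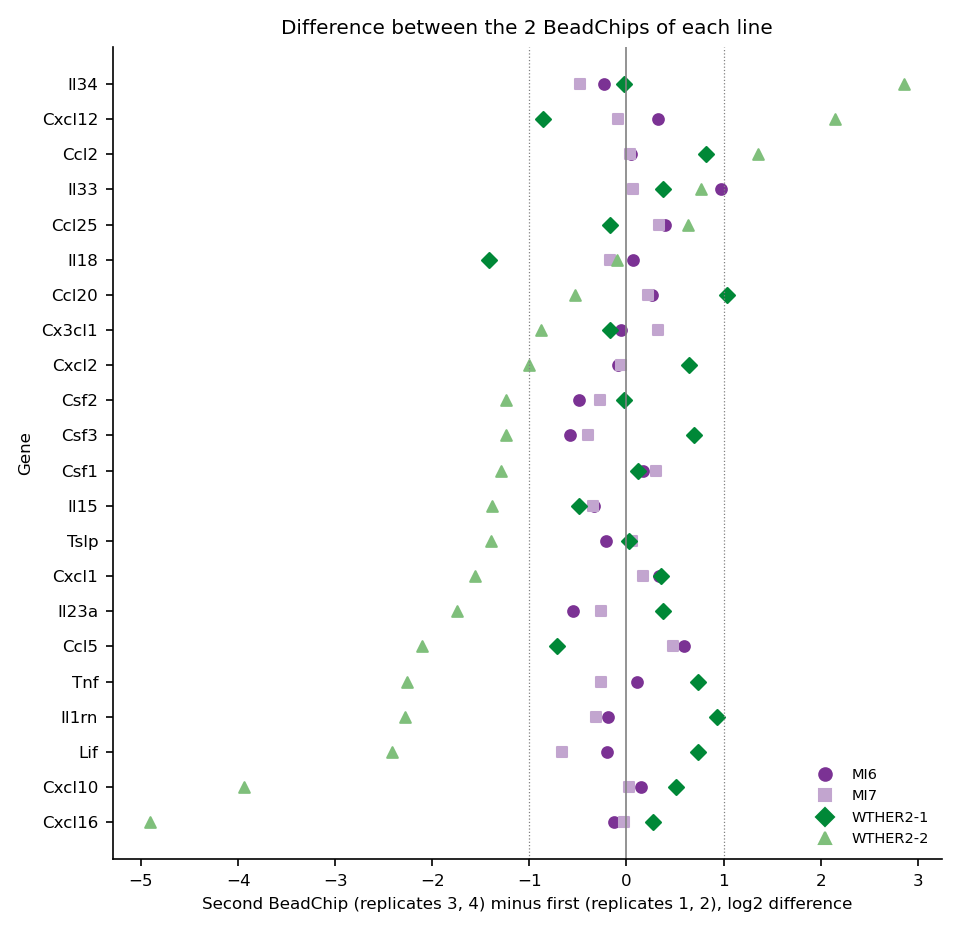
Log2 difference between the second BeadChip (replicates 3 and 4) and the first (replicates 1 and 2) of each line for the 22 tested genes, with dotted lines at a difference of 1 in either direction. The WTHER2-2 triangles run from -4.90 (Cxcl16) to 2.86 (Il34), and MI6 and MI7 stay inside the dotted lines.

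Most receptors and pathway genes around these signals were not called between the transgenes. Their counts stand against the same shares of all genes, 19.5% at an unadjusted line-level p under 0.05, 3.05% separated and higher, and 2.43% separated and lower. Of 21 chemokine receptors 4 were tested, and 1 was higher in the d16HER2 lines. That was Cxcr4, the receptor of CXCL12, at 9.35 ± 0.49 for MI6 and 9.49 ± 0.17 for MI7 against 5.22 ± 0.40 for WTHER2-1 and 5.13 ± 0.72 for WTHER2-2 (SD, 4 arrays). Cxcr4 differed by 4.24 ± 0.23 (line-level adjusted p = 0.04) and was separated. However, the line-level test called 0 genes without BeadChip 3 or without BeadChip 4. Cxcr4 was detected on all 4 arrays of each d16HER2 line but on only 1 array of each WT HER2 line. It thus entered the test only through the lines in which it was high, and its WT HER2 level was near background. Of 22 cytokine receptors 16 were tested and 0 were called by either test, with 4 below 0.05 before adjustment. The receptors farthest from 0 were the IL-18 receptor chain Il18r1, at 3.55 ± 0.88 (adjusted p = 0.163), and the TNF receptor Tnfrsf1b, at -1.82 ± 0.48 (adjusted p = 0.174).

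Of 19 NF-kB subunits, kinases and feedback genes 15 were tested and 0 were called between the transgenes in limma, with 4 at an unadjusted p under 0.05. The adhesion molecule gene Icam1 differed by -1.01 ± 1.14 (adjusted p = 0.684) and the NF-kB cofactor Bcl3 by -0.89 ± 0.33 (adjusted p = 0.269). Of 20 interferon and JAK-STAT factors 16 were tested, 6 had an unadjusted p under 0.05, and 1 was separated. That was Socs3, the feedback inhibitor of STAT3 signalling, at 8.90 ± 0.64 for MI6 and 9.53 ± 0.32 for MI7 against 11.75 ± 0.15 for WTHER2-1 and 11.85 ± 1.15 for WTHER2-2. It differed by -2.58 ± 0.28 (line-level adjusted p = 0.0619). Of 9 genes that process or shed cytokines 7 were tested and 0 were called between transgenes in limma, with 2 at an unadjusted p under 0.05. Casp4, an inflammatory caspase, differed by -1.60 ± 0.67 (adjusted p = 0.308) and Gsdmd, the pore protein that releases IL-1 family cytokines, by -1.46 ± 1.12 (adjusted p = 0.541). Median differences were 0.13 for the tested chemokine receptors, -0.11 for cytokine receptors, 0.11 for NF-kB genes, -0.33 for interferon and JAK-STAT factors and 0.02 for processing genes, against 0.03 over all genes.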

How the data were processed

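Raw probe intensities and detection p-values were deposited by the authors without normalization, per the file headers, from BeadStudio per the submitters' processing notes, which give no version. The detection p-value of a probe, deposited beside its intensity, ranks it against negative controls. The authors also deposited an intensity table whose arrays share 1 distribution, used as an alternative only.

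Intensities were corrected with limma's normexp model on the controls implied by the detection p-values (offset 16), quantile-normalized and put on the log2 scale (R 4.3.3, limma 3.58.1). That offset shrinks differences of dim probes. Arrays give no counts, and their number limits the precision. Probes with a detection p under 0.05 on at least 4 of 16 arrays were kept (20152 of 45281), and each gene was its brightest kept probe by mean, which left 10724 genes. The annotation gave 34885 probes 1 symbol, 18 several and 10378 none, and 34807 matched the GRCm38.p6 gene table by gene ID.

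The line-level test compared line means and the second fit used 4 line coefficients on 16 arrays, both in limma with an intensity trend. A gene undetected on every array of a group has a bound: the other group's mean against, per array, the higher of the dimmest detected signal and the gene's own value. The fits were tried on simulated arrays with changes of known size. Their spread between arrays was capped and their lines differed little, unlike WTHER2-2 here (SD of 3.02 for Cxcl16). That trial checks the code and not the calls made here. All listed genes are named. Genes called in the line-level test, separated, called between lines of 1 transgene or detected on 16 arrays have every array given, and of the pathway lists the called genes, or else the 2 with the largest differences, are named. The genes and lists were chosen with earlier results of these data known. Alternatives changed the background correction, normalization, detection filter, probe summary, variance trend, BeadChip terms, arrays and lines. Samples were grouped by their labelled cell line.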

Additional observations from a re-analysis of the deposited data

Results flagged for a closer look

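Within the 4 arrays of a line, 3 of the 76 sets of values examined had 1 array far from the other 3, by the size of its gap relative to the range, and chance alone gives about 1 in 20. Il1rn was 9.84 on WTHER2-1 replicate 3, where the nearest of the other arrays was 8.23. Tnf was 7.05 on MI7 replicate 1, with the nearest at 6.46. Tnf was 5.02 on WTHER2-1 replicate 2, with the nearest at 6.36.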

How the results depend on the processing

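Directions were not followed gene by gene in runs that left out a whole line. Against WTHER2-1 alone, for example, Lif was lower in MI6 (-0.06) and MI7 (-0.42). In the alternatives followed, which kept all 4 lines, the direction of the difference between transgenes was the same for 19 of the 22 genes. The exceptions were Cxcl16 (-0.16, but 0.11 with the mean of probes, 1.08 without BeadChip 3 and -0.77 to 0.26 leaving out 1 array), Il15 (0.19, but -0.16 without BeadChip 4) and Tslp (0.00, but -0.042 with median scaling, -0.36 without BeadChip 4 and -0.11 to 0.073 leaving out 1 array). The line-level test called 53 genes and 1 of the 22, against 84 genes at a detection p under 0.01. It called 0 genes and 0 of the 22 with no detection filter, without BeadChip 3, without BeadChip 4, without MI6 or without MI7, 0 of the 22 with median scaling, 2443 genes and 9 of the 22 without WTHER2-1, and 1535 and 6 without WTHER2-2, where the lone line is assumed to vary like the others. Leaving out 1 array gave 0 to 142 genes and 0 to 2 of the listed genes, of which 21 or 22 were then tested. Separated genes numbered 588 (528 to 639 leaving out 1 array), with 5 of the 22 (3 to 6 listed genes leaving out 1 array). With BeadChip as a random block they numbered 507, with 3 of the 22 (Ccl25, Ccl5 and Csf3). MI6 and MI7 differed in 125 genes (82 to 171 leaving out 1 array, with 0 to 1 of the listed genes). The count was 77 with no background correction and 77 with the authors' table. With BeadChip as a fixed block it was 228 (2 of the 22), without BeadChip 3 220 (2 of 21) and without BeadChip 4 255 (5 of the 22). In BeadChip 1 alone it was 109 (1 of the 22, Il23a) and in BeadChip 2 alone 30 (0 of the 22). With median scaling it was 132 (1 of the 22, Ccl25). WTHER2-1 and WTHER2-2 differed in 1698 genes (1485 to 1943 leaving out 1 array, with 4 to 7 of the listed genes). Their count was 2548 without BeadChip 3 (12 of 21 listed genes) and 1805 without BeadChip 4 (10 of the 22). With a random block it was 1478 (3 of the 22, Cxcl1, Il33 and Lif). The cause was not tested. Replicate numbers order the arrays within a line, and nothing in the labels pairs an array with one of another line, so no paired analysis was made. BeadChips that MI6 and MI7 shared entered as a block, as above. Signal near background limits Ccl2, Cxcl2, Cxcl10, Csf2, Tslp and the d16HER2 levels of Ccl5 and Il18. It also limits Il33 in MI7, Csf3 in WTHER2-2, and Ccl20 and Cxcr4 in the WT HER2 lines.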
